A study of Homo sapiens with 11 samples.

Results

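The 40 genes described here encode glycoproteins and proteoglycans of the extracellular matrix and secreted proteins that act on it. They were chosen by gene symbol alone, and all 40 symbols were among the 35303 genes of the count table. By role they fall into 8 adhesive and matricellular proteins, 12 elastic fibre and microfibril proteins, 6 small leucine-rich proteoglycans, 2 other proteoglycans, 7 basement membrane proteins and 5 secreted modulators. RNA was measured by RNA-seq in cells whose titles name LX-2 (written Lx2), an immortalised human hepatic stellate cell line. By these titles every RNA-seq library comes from 1 line, so no donor variation is sampled. The 3 groups of 3 libraries were taken at 24 h, all from cells labelled wild type and grown in DMEM with serum. HIV-1+LTA cells received the BaL strain of HIV-1 at a multiplicity of infection of 0.1 together with lipoteichoic acid (LTA), a Gram-positive cell wall product, at 1 µg/ml. HIV-1 cells received the same virus at the same dose without LTA, and PBS cells received buffer. No group had LTA alone, so LTA can be compared only in cells given virus. The labels number the batches 1, 2 and 3, with 1 library of each group in each batch. Nothing in the labels says that the libraries of a group were grown separately, so p-values reflect variation among these 9 libraries, part of which may be technical.

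Stellate cells of the liver store retinoids at rest and become matrix-producing myofibroblasts after injury. Besides collagens they then secrete adhesive glycoproteins such as fibronectin, the fibrillins and fibulins of microfibrils and elastic fibres, laminins and nidogens of basement membranes, and proteoglycans that bind growth factors and collagen fibrils. Matricellular proteins such as thrombospondins, tenascin-C and SPARC do not mainly build the scaffold but change how cells attach to it. TGF-beta is a main inducer of many of these genes in stellate cells.

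The libraries held 50628144 to 90599780 counts, and the 40 genes took 1.41% to 2.15% of them. The stellate cell label was checked against 14 markers: 11 averaged at least 1 CPM (counts per 1000000 counts of the library), among them ACTA2, COL1A1, COL1A2, PDGFRB and VIM, while the quiescence marker LRAT and DES were below that level. Over the libraries, summed markers reached 0.396 to 2.20 CPM for hepatocytes (7 genes), 1.01 to 2.26 CPM for endothelium (7 genes, of which LYVE1 and CLEC4G were at 0 throughout) and 25.2 to 37.5 CPM for cholangiocytes and epithelium (5 genes), the last mostly SOX9 at a mean of 26.5 CPM and KRT7 at 4.93 CPM. Batch 3 differed from batch 1 in 10754 and from batch 2 in 10930 of the 16117 genes tested, as described at the end. With LTA, DESeq2 called 1 of 11 stellate markers lower and 0 higher against HIV-1 (VIM, log2 fold change -0.31), and 2 of 10 lower (VIM -0.31, LOX -0.33) and 1 higher (TIMP1 0.32) against PBS. In bulk RNA, fewer cells of a kind and less RNA per cell cannot be told apart.

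Per kilobase of exon, transcripts of 2 adhesive proteins and a secreted modulator stood at the top. Fibronectin (FN1), the integrin-bound adhesive glycoprotein, averaged 383 CPM per kilobase over the 9 libraries, followed by SPARC, a collagen-binding matricellular protein, at 318, and FSTL1, a secreted follistatin-related glycoprotein, at 269.8. FN1 alone made up 38.1% of all counts of the 40 genes, FSTL1 15.0% and SPARC 8.67%. In all, 6 of the 40 genes averaged at least 100 on this scale (also TGFBI, THBS1 and SPOCK1), 10 lay between 10 and 100, 9 between 1 and 10, and 15 below 1. The order of the upper 3 is not firm, since FN1 ranged from 255 to 563, SPARC from 279 to 380 and FSTL1 from 219 to 348 over the libraries. Exon lengths are unions of all annotated exons of a gene, so a gene with many unused exons reads low.

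**Figure D1:**
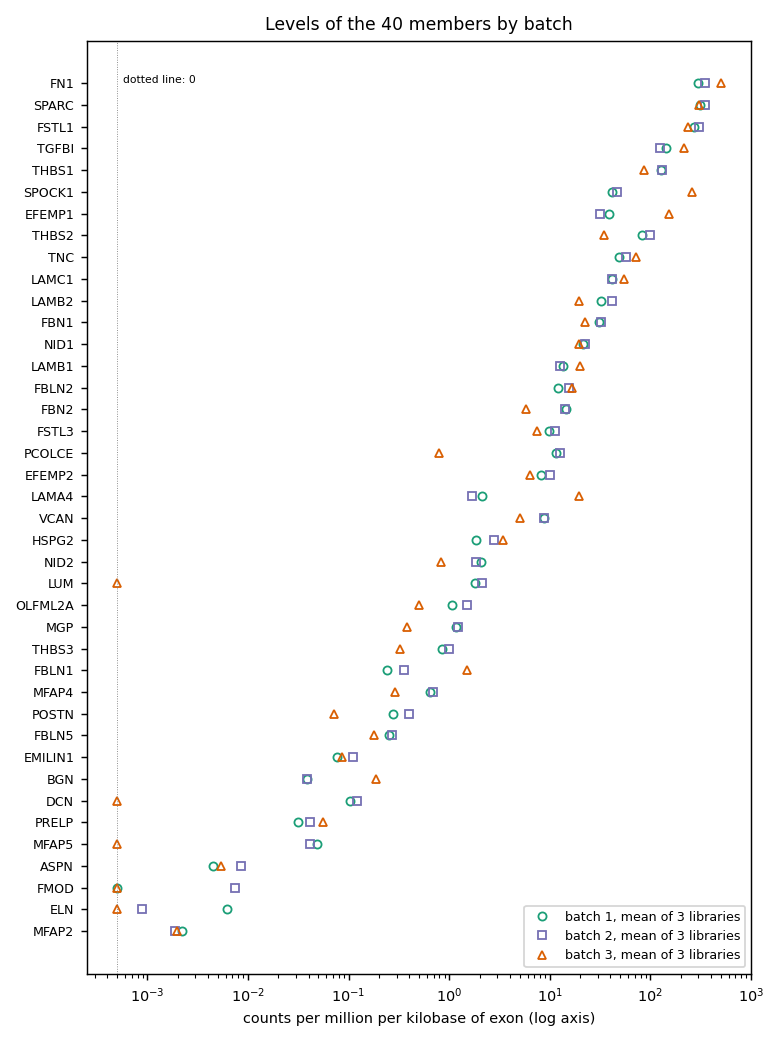
Mean level of each of the 40 genes in CPM per kilobase of exon (log axis), 3 libraries per batch. FN1, SPARC and FSTL1 lead in batches 1 and 2, SPOCK1 lies above FSTL1 in batch 3, and LUM, DCN, MFAP5 and the untested ELN and FMOD lie on the dotted line for 0 in batch 3, FMOD in batch 1 as well.

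FN1 was measured at 5090, 4386 and 6797 CPM in HIV-1+LTA cells of batches 1, 2 and 3, against 5457, 6280 and 9688 CPM in HIV-1 cells and 4946, 7141 and 9606 CPM in PBS cells. SPARC was at 1460, 1511 and 1372 CPM in HIV-1+LTA cells, against 1540, 1526 and 1353 CPM in HIV-1 cells and 1296, 1764 and 1467 CPM in PBS cells. FSTL1 was at 2632, 2484 and 2100.2 CPM in HIV-1+LTA cells, against 2586, 2729 and 2059 CPM in HIV-1 cells and 2452, 3275 and 2527 CPM in PBS cells. The groups overlapped for all 3 genes, and FN1 was higher in batch 3 than in batch 1 with each treatment. At the other end, 4 genes were too low to test: elastin (ELN), the core of elastic fibres, the microfibril protein MFAP2, and the small leucine-rich proteoglycans asporin (ASPN) and fibromodulin (FMOD). Their highest count in any library was 6, 1, 5 and 3 in that order, in libraries of at least 50628144 counts. The other 36 genes entered the edgeR test.

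No member passed either test for HIV-1 alone against PBS. The edgeR quasi-likelihood test, with batch as a block, called 0 of 36 at an adjusted p below 0.05, where the background over 16117 genes was 0%. It gave no member an unadjusted p below 0.05, against 678 of all genes, and the lowest adjusted p among the members was 0.946. DESeq2, the tool named in the study, also called 0 of 36, with 1 at an unadjusted p below 0.05, where 0.005% of its 19990 genes were called higher and 0.01% lower. The median log2 fold change of the members was -0.04, against -0.0015 over all genes. EMILIN1 was higher with HIV-1 than with PBS in all 3 batches, and FBN2, FBLN1, PRELP and SPOCK1 were lower, counts of 1 and 4 of 36, where the background was 16.3% and 16.9%.

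The outermost fold changes of HIV-1 against PBS belonged to genes with few reads. EMILIN1, an elastin-interface glycoprotein, had 26, 28 and 25 counts in HIV-1 cells of batches 1, 2 and 3, against 22, 34 and 12 counts in PBS cells (edgeR log2 fold change 0.60 ± 0.36, SE). MFAP5, a microfibril protein, had 8, 3 and 0 counts in HIV-1 cells, against 21, 20 and 0 counts in PBS cells (edgeR log2 fold change -1.31 ± 0.63, SE). PRELP, a leucine-rich proteoglycan that anchors basement membranes, had 6, 7 and 20 counts in HIV-1 cells, against 16, 27 and 18 counts in PBS cells (-0.66 ± 0.43, SE). The counts overlapped between the groups for MFAP5, EMILIN1 and PRELP. The well-measured LAMB2, a laminin beta chain, was at 224, 266 and 138 CPM in HIV-1 cells, against 206, 268 and 114 CPM in PBS cells, an edgeR log2 fold change of 0.10 ± 0.06 (SE). Its edgeR adjusted p was 0.946, so a difference of this size did not pass with 3 libraries a group.

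With LTA added to HIV-1, DESeq2 called 7 of the 31 members that it gave an adjusted p: 6 were higher and 1 lower than with HIV-1 alone. The background of this comparison was 1.4% higher and 0.538% lower over 13014 genes. The 6 higher genes were MGP, OLFML2A, PCOLCE, FBLN2, EFEMP2 and EFEMP1, and the lower one was FSTL3. Against PBS, DESeq2 called 8 of 28 members for HIV-1+LTA, 5 higher (MGP, OLFML2A, PCOLCE, FBLN2 and EFEMP2) and 3 lower (FSTL3, VCAN and TNC), where 0.964% of 12239 genes were called higher and 0.964% lower. These comparisons share the HIV-1+LTA libraries, so the second does not stand as independent evidence for the first. The main test, edgeR with all 9 libraries, called 0 of 36 members in both comparisons, with a background of 0% and 0% over 16117 genes. It gave an unadjusted p below 0.05 to 18 members of 36 against HIV-1 and to 19 against PBS, beside 2486 and 2709 of all genes. Its lowest adjusted p among members was 0.171 against HIV-1 and 0.205 against PBS, and limma-voom also called none.

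**Figure D2:**
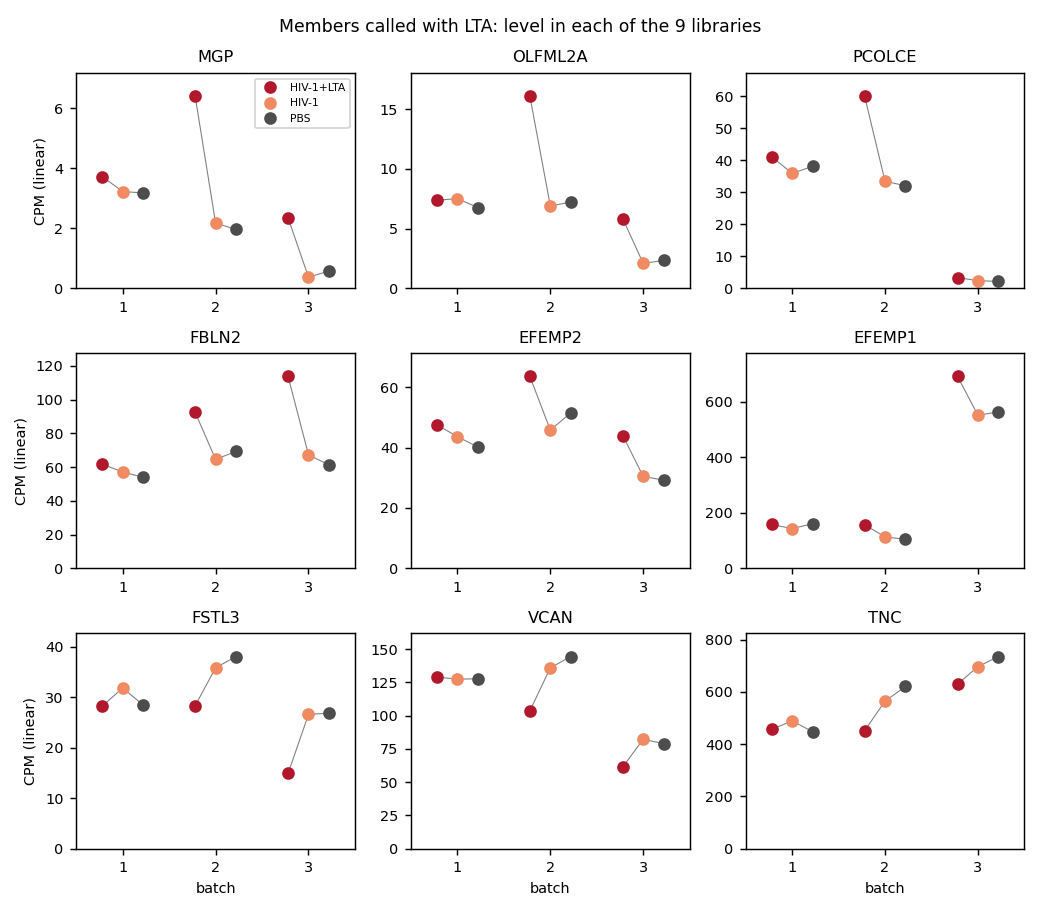
CPM (linear axis from 0) of the 9 members called by DESeq2, 1 point per library, with the groups HIV-1+LTA, HIV-1 and PBS from left to right within each batch. In batch 1 the 3 points lie close together, as for OLFML2A at 7.36, 7.504 and 6.755 CPM. In batches 2 and 3 the HIV-1+LTA point lies beyond the others. In batch 3 this is hard to see for PCOLCE (3.34, 2.38 and 2.14 CPM) and small for TNC (630, 697 and 736 CPM).

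Promoter sequences are shown for genes called with LTA, a pair of higher ones (OLFML2A, which has 2 start sites, and PCOLCE) and a pair of lower ones (TNC and FSTL3). Each runs 5′ to 3′ on the gene's strand from 250 bases before to 50 after the RefSeq start (GRCh38.p14), and capitals mark matches on either strand to the motifs searched: TGANTCA for AP-1, GGAATG for TEAD, CAGACA for SMAD and GGAAGT for ETS, which do not overlap in these windows. The windows lie at chr9:124776883-124777182 and chr9:124800624-124800923 (plus strand) for OLFML2A, chr7:100602113-100602412 (plus) for PCOLCE, chr9:115118108-115118407 (minus) for TNC and chr19:676142-676441 (plus) for FSTL3.
OLFML2A upstream start: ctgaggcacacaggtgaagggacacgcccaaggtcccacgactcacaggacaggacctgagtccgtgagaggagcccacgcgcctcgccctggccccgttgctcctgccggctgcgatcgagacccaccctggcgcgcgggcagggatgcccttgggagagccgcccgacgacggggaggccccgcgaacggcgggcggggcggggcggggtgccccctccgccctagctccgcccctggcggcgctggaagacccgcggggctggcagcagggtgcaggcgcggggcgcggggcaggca
OLFML2A downstream start: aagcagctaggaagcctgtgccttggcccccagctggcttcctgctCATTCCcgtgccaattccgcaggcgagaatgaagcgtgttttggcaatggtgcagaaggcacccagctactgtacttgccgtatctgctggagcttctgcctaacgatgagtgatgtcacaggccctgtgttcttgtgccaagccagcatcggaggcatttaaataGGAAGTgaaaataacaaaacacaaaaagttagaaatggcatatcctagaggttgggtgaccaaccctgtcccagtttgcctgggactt
PCOLCE: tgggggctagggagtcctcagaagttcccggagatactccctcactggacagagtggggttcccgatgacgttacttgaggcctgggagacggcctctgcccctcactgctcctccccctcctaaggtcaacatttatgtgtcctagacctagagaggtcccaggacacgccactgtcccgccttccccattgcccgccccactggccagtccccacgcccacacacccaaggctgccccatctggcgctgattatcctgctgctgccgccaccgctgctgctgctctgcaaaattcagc
TNC: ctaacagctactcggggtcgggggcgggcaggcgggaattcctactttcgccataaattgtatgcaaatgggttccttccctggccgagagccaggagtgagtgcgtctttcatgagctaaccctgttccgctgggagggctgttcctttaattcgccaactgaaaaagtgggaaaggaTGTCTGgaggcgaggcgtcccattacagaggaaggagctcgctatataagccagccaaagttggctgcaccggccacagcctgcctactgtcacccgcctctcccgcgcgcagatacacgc
FSTL3: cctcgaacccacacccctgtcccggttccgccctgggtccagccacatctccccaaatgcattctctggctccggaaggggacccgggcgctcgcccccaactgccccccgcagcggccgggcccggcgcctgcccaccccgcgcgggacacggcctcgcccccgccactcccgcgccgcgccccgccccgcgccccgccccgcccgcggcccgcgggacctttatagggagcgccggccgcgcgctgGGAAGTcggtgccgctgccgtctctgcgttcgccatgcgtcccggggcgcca

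The upstream OLFML2A window and the PCOLCE window hold none of the 4 motifs, while the downstream OLFML2A window holds 1 TEAD and 1 ETS match, TNC 1 SMAD match and FSTL3 1 ETS match. Thus the higher pair does not share a motif here, and neither does the lower pair. Of the 40 members, 31 had a promoter in the table, with 36 windows. AP-1 letters were in 5.56% of these against 7.71% of all 35116 promoters, TEAD letters in 16.7% against 14.03%, SMAD letters in 11.1% against 16.9%, and ETS letters in 16.7% against 22.8%. A match is a description of the sequence only.

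The study also has a ChIP-seq peak list for HIV-1 cells, from 1 library, with an antibody not given in the sources used here, whose title names Lx2 while its cell line label reads Lx5. It holds 154 distinct peaks on hg19, and 1 of the 40 members, FBLN2, lies within 10 kb of one, a share of 2.5%, against 0.986% of 20176 protein-coding genes (199). The peak is at chr3:13580388-13580674 (plus strand shown), 9951 bases before the start of FBLN2 at chr3:13590625-13679922. Its 287 bases are 60.6% G or C, and the capitals mark its 1 match to the SMAD letters.
FBLN2 upstream peak: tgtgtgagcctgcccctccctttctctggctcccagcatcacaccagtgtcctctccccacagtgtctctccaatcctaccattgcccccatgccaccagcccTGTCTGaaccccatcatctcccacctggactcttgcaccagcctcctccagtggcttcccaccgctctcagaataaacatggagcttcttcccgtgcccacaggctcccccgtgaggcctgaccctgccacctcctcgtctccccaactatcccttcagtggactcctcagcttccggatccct

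The secreted modulators held 4 of the 7 members that DESeq2 called against HIV-1. MGP, matrix Gla protein, an inhibitor of calcification that also binds BMPs, was at 3.72, 6.40 and 2.35 CPM in HIV-1+LTA cells of batches 1, 2 and 3, against 3.23, 2.18 and 0.370 CPM in HIV-1 cells and 3.18, 1.96 and 0.575 CPM in PBS cells. HIV-1+LTA was the highest in each batch, by little in batch 1 and by far in batches 2 and 3, though the groups overlapped across batches. DESeq2 gave a log2 fold change of 1.41 ± 0.31 (SE, adjusted p = 0.00183) against HIV-1 and 1.30 ± 0.30 (SE, adjusted p = 0.0124) against PBS. OLFML2A, a secreted olfactomedin-domain glycoprotein, was at 7.36, 16.1 and 5.83 CPM in HIV-1+LTA cells, against 7.504, 6.89 and 2.08 CPM in HIV-1 cells and 6.755, 7.21 and 2.34 CPM in PBS cells. In batch 1 its 3 libraries did not separate, and in batches 2 and 3 the HIV-1+LTA library stood well above the others. Its DESeq2 log2 fold change was 0.87 ± 0.20 (SE, adjusted p = 0.00439) against HIV-1 and 0.83 ± 0.20 (SE, adjusted p = 0.0137) against PBS. Both calls were lost when DESeq2 was run on the genes kept by edgeR's filter, with adjusted p of 0.0912 for MGP and 0.127 for OLFML2A against HIV-1, and 0.114 and 0.130 against PBS.

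PCOLCE, which enhances the enzyme that trims procollagen C-propeptides, was at 41.1, 60.1 and 3.34 CPM in HIV-1+LTA cells, against 35.96, 33.5 and 2.38 CPM in HIV-1 cells and 38.1, 32.1 and 2.14 CPM in PBS cells. The HIV-1+LTA library was again the highest of each batch. DESeq2 gave 0.49 ± 0.12 (SE, adjusted p = 0.00804) against HIV-1 and 0.48 ± 0.12 (SE, adjusted p = 0.0195) against PBS on the log2 scale. FSTL3, a secreted antagonist of activins, went the other way: it was at 28.3, 28.3 and 14.9 CPM in HIV-1+LTA cells, against 31.8, 35.9 and 26.6 CPM in HIV-1 cells and 28.5, 38.1 and 26.9 CPM in PBS cells. Its fold change in DESeq2 was -0.46 ± 0.12 (SE on the log2 scale, adjusted p = 0.0203) against HIV-1 and -0.48 ± 0.12 (SE on the log2 scale, adjusted p = 0.0234) against PBS. The fifth modulator, FSTL1, did not pass, with edgeR log2 fold changes of -0.06 ± 0.09 against HIV-1 and -0.25 ± 0.09 against PBS (SE). Of the 5 modulators, 3 were thus called higher and 1 lower in both comparisons.

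Among the elastic fibre genes the calls fell on fibulins, though not on all of them. FBLN1 and FBLN5 were not called, with DESeq2 adjusted p of 0.387 and 0.674 against HIV-1. FBLN2, which bridges basement membranes and elastic fibres, was at 61.7, 92.5 and 114 CPM in HIV-1+LTA cells, against 57.2, 64.7 and 67.4 CPM in HIV-1 cells and 54.0, 69.3 and 61.3 CPM in PBS cells. It was the highest with LTA in each batch, and its DESeq2 log2 fold change was 0.44 ± 0.10 against HIV-1 (SE, adjusted p = 0.00374) and 0.44 ± 0.10 against PBS (SE, adjusted p = 0.00823). EFEMP2, a fibulin that elastic fibre assembly requires, was at 47.5, 63.6 and 43.99 CPM in HIV-1+LTA cells, against 43.6, 45.8 and 30.4 CPM in HIV-1 cells and 40.2, 51.5 and 29.2 CPM in PBS cells. DESeq2 gave 0.34 ± 0.09 (SE, adjusted p = 0.00919) against HIV-1 and 0.31 ± 0.09 (SE, adjusted p = 0.0316) against PBS. EFEMP1, another fibulin, was at 158, 157 and 690.3 CPM in HIV-1+LTA cells, against 143, 113 and 551 CPM in HIV-1 cells and 161, 105 and 563 CPM in PBS cells. Its call, 0.29 ± 0.08 (SE, adjusted p = 0.0241), held against HIV-1, while against PBS the DESeq2 adjusted p was 0.117. The fibrillin FBN1, the backbone of microfibrils, was near 0 in every batch, at -0.05, -0.04 and -0.03 on the log2 scale against HIV-1. In all, 3 of 8 elastic fibre genes with a DESeq2 adjusted p were called higher against HIV-1 and 2 of 6 against PBS, with none lower in either.

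Of the 8 adhesive genes 6 had edgeR log2 fold changes below 0 with LTA, with a median of -0.19 against HIV-1 and -0.20 against PBS, and so had both other proteoglycans, VCAN and SPOCK1. DESeq2 called 1 of each group lower against PBS. Tenascin-C (TNC), a matricellular protein induced in injured tissue, was at 457, 451 and 630.0 CPM in HIV-1+LTA cells, against 489, 565 and 697 CPM in HIV-1 cells and 448, 621 and 736 CPM in PBS cells. Versican (VCAN), a hyaluronan-binding chondroitin sulfate proteoglycan, was at 129, 104 and 61.5 CPM in HIV-1+LTA cells, against 128, 136 and 82.2 CPM in HIV-1 cells and 128, 145 and 79.0 CPM in PBS cells. Both were level with the controls in batch 1 and below them in batches 2 and 3. DESeq2 called both against PBS, at -0.29 ± 0.08 for TNC (SE, adjusted p = 0.0393) and -0.34 ± 0.09 for VCAN (SE, adjusted p = 0.0316). Against HIV-1 the DESeq2 adjusted p was 0.154 for TNC and 0.0805 for VCAN, so neither passed. THBS1, a thrombospondin that can activate latent TGF-beta, was at 1181, 834 and 610.2 CPM in HIV-1+LTA cells, against 1242, 1354 and 852 CPM in HIV-1 cells and 1112, 1389.7 and 897 CPM in PBS cells. TGFBI, an adhesion protein induced by TGF-beta, was at 1064, 777 and 1258 CPM in HIV-1+LTA cells, against 1212, 1089 and 1888 CPM in HIV-1 cells and 1034, 1033 and 1849 CPM in PBS cells. For FN1, THBS1 and TGFBI the pattern over batches was like that of TNC, but no test with all 9 libraries called them. Their edgeR log2 fold changes against PBS were -0.44 ± 0.12, -0.45 ± 0.13 and -0.37 ± 0.10 (SE). The adhesive genes THBS2 and THBS3 went the other way, with edgeR log2 fold changes against HIV-1 of 0.27 ± 0.09 and 0.26 ± 0.15 (SE). THBS2 was above HIV-1 by 0.08, 0.18 and 0.54 log2 CPM in batches 1, 2 and 3. Its DESeq2 adjusted p against HIV-1 was 0.0646, so it did not pass.

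For each of the 7 members that DESeq2 called against HIV-1, the difference with LTA was smaller in batch 1 than in the other batches. Against HIV-1, MGP differed by 0.21, 1.49 and 2.54 log2 CPM over the batches in order. OLFML2A differed by -0.02, 1.16 and 1.43 log2 CPM and FSTL3 by -0.17, -0.40 and -0.88. The same held for genes at large: over 9319 genes with at least 10 CPM, the SD of the within-batch difference against HIV-1 was 0.0761, 0.237 and 0.196 for batches 1 to 3. The HIV-1 against PBS difference of batch 1 had an SD of 0.0811, so by this measure the spread of batch 1 was not above that without LTA. For the 22 members above 10 CPM the SDs against HIV-1 were 0.0980, 0.416 and 0.411. Of the 36 members, 9 were higher and 8 lower than HIV-1 in all 3 batches, where the background was 16.7% and 17.1%. Against PBS, 9 were higher and 2 lower in all 3 batches, where it was 17.5% and 16.3%.

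**Figure D3:**
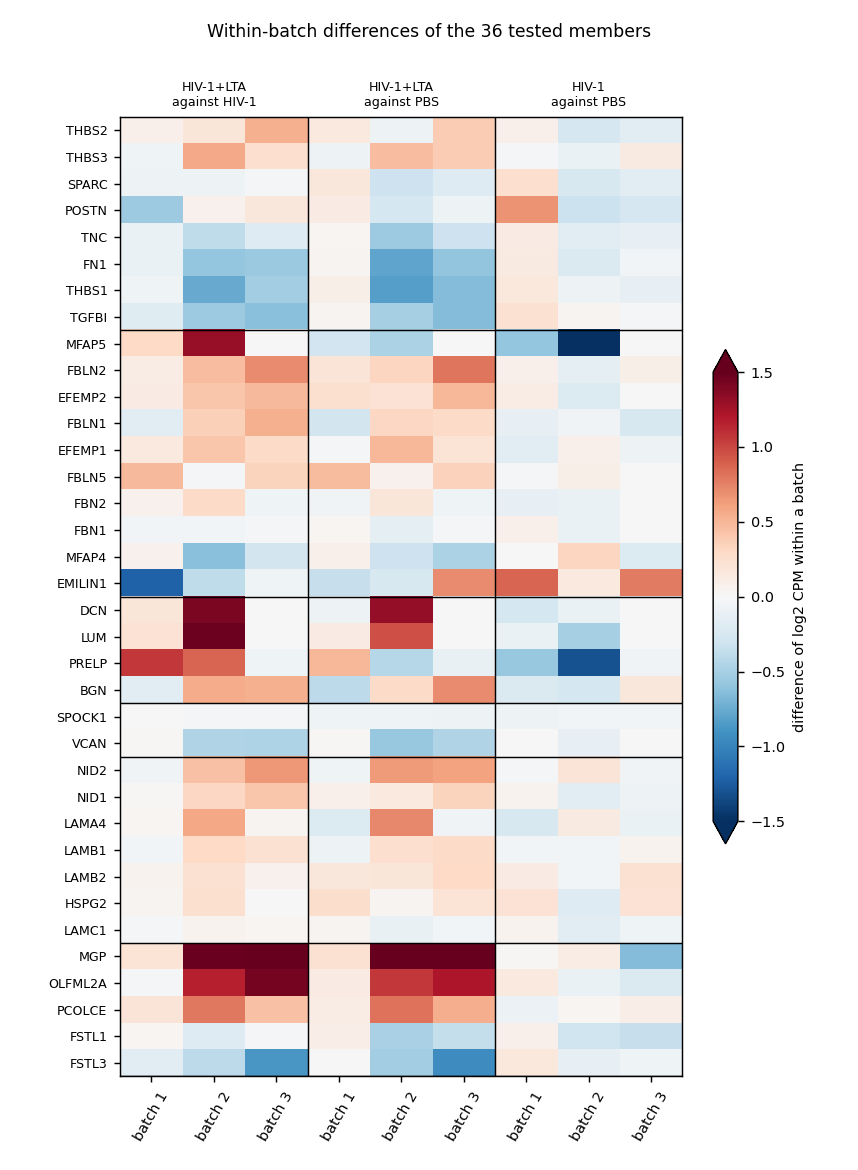
Within-batch difference in log2 CPM for the 36 tested members (rows, by role) and the 3 comparisons (columns). MGP, OLFML2A and PCOLCE are higher and FN1, THBS1, TGFBI and FSTL3 lower with LTA in batches 2 and 3, while the batch 1 columns are pale for these genes. LUM, DCN and MFAP5 have no reads in batch 3.

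A single library decided the edgeR count. Each of the 9 libraries was left out in turn, and without the HIV-1+LTA library of batch 1 edgeR called 19 of 36 members against HIV-1, 13 higher and 6 lower, where the background was 7.07% higher and 7.56% lower. Against PBS it then called 19 of 36, 12 higher and 7 lower, where the background was 7.57% and 8.63%. No other single library moved the count against HIV-1 from 0, and against PBS only leaving out the PBS library of batch 1 did, to 5 (FN1, THBS1, TNC, TGFBI and FSTL1). Leaving out all of batch 1 gave 18 and 19 called members. The fit without the HIV-1+LTA library of batch 1 is detailed because, of the single libraries, it moved the count most. It was thus picked by its outcome, with HIV-1+LTA from batches 2 and 3 alone, so its adjusted p are not to be taken at face value. The higher members in this fit included MGP (1.84 ± 0.21, SE, edgeR adjusted p = 0.000119), OLFML2A (1.22 ± 0.12, SE, edgeR adjusted p = 3.63e-05) and PCOLCE (0.73 ± 0.09, SE, edgeR adjusted p = 0.000147), all log2 fold changes against HIV-1. The lower ones were THBS1 at -0.68 ± 0.07, FSTL3 at -0.66 ± 0.10, TGFBI at -0.62 ± 0.06, FN1 at -0.61 ± 0.07, VCAN at -0.46 ± 0.05 and TNC at -0.33 ± 0.07 (SE). Basement membrane genes joined the higher calls, with the nidogens NID1 at 0.33 ± 0.06 and NID2 at 0.55 ± 0.10 and the laminin chain LAMB1 at 0.27 ± 0.05 (SE). The DESeq2 calls with 9 libraries depended on the other batches: each of the 7 calls against HIV-1 was lost when the HIV-1+LTA or the HIV-1 library of batch 2 or batch 3 was left out. Each of the 8 calls against PBS was lost when the HIV-1+LTA or the PBS library of batch 2 or batch 3 was left out. Over the 9 leave-outs the calls held in 3 to 5 against HIV-1 and in 2 to 5 against PBS. Without the HIV-1+LTA library of batch 1 DESeq2 called 18 members against HIV-1 and 17 against PBS, and without the PBS library of batch 1 it called 12 against PBS. Against HIV-1 it called 4 without the PBS library of batch 2 or of batch 3, and against PBS 5, 1 and 2 without the HIV-1 library of batch 1, 2 and 3. Over left-out libraries and batches DESeq2 called 0 to 2108 of all genes against HIV-1 and 0 to 2419 against PBS. The share of all genes in each of these DESeq2 fits is not given here, so the counts are not read as particular to the members.

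**Figure D4:**
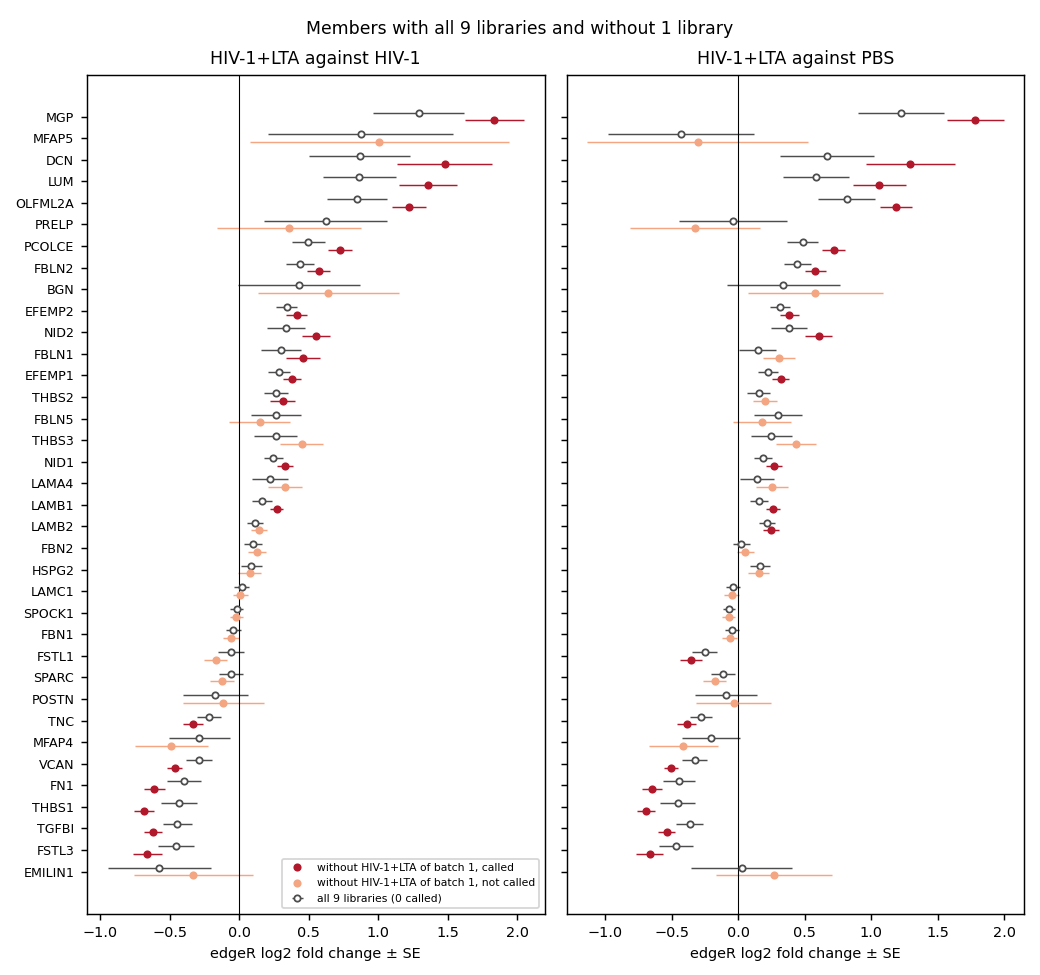
edgeR log2 fold change ± SE of the 36 members for HIV-1+LTA against HIV-1 (left) and against PBS (right), with all 9 libraries (open points) and without the HIV-1+LTA library of batch 1 (filled points, dark where called). With all 9 libraries 0 members were called, and without that library 19 in each comparison.

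The small leucine-rich proteoglycans LUM and DCN, which regulate collagen fibril growth, were read only in batches 1 and 2. Lumican (LUM) had 342 and 612 counts in HIV-1+LTA cells of batches 1 and 2, against 249 and 186 counts in HIV-1 cells and 438 and 356 counts in PBS cells. Decorin (DCN), which also binds TGF-beta, had 88 and 180 counts in HIV-1+LTA cells, against 66 and 56 counts in HIV-1 cells and 130 and 81 counts in PBS cells. In CPM the HIV-1+LTA library of batch 2 stood above all others for both, at 9.28 for LUM and 2.73 for DCN, so this difference rests on 1 library. The edgeR log2 fold changes against HIV-1 were 0.86 ± 0.26 for LUM and 0.87 ± 0.36 for DCN (SE, adjusted p = 0.209 and 0.299), and DESeq2 gave LUM an adjusted p of 0.0646. Without the HIV-1+LTA library of batch 1 edgeR called both higher against HIV-1, at 1.36 ± 0.21 for LUM and 1.48 ± 0.34 for DCN (SE), with reads of that group then from batch 2 alone. MFAP5, at an edgeR log2 fold change of 0.88 ± 0.67 (SE), had 12, 12 and 0 counts in HIV-1+LTA cells, against 8, 3 and 0 counts in HIV-1 cells, and EMILIN1 had 12, 25 and 20 counts, against 26, 28 and 25 counts in HIV-1 cells. Neither MFAP5 nor EMILIN1 passed a test.

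Laminin and nidogen transcripts, the core of basement membranes, had small fold changes above 0 with LTA. All 7 basement membrane members were above 0 against HIV-1, with a median edgeR log2 fold change of 0.17, and 6 of 7 were above 0 against PBS, with a median of 0.16. None of the 7 passed edgeR or DESeq2 with all 9 libraries. NID1, which links laminin to collagen IV, came nearest, with a DESeq2 adjusted p of 0.0501 against HIV-1. Over all 36 members the median edgeR log2 fold change was 0.19 against HIV-1 and 0.14 against PBS, beside -0.0038 and 0.0016 over all genes.

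Reads on both strands may have been counted together, since no strand setting is given in the sources used here. Of the 40 members, 13 overlap the exons of a gene on the other strand, and for 6 of them that gene had at least 5% as many counts. MGP, for instance, overlaps C12orf60, which had 80.0% as many counts, and EFEMP2 overlaps MUS81, which had 67.8% as many. In DESeq2 C12orf60 had a log2 fold change of -0.23 ± 0.22 and MUS81 of -0.04 ± 0.09 against HIV-1 (SE), with DESeq2 adjusted p of 0.682 and 0.897. The doubt is larger for NID2, whose partner RTRAF had 2183% as many counts, for MFAP4 with MAPK7 at 1797% and for THBS3 with MTX1 at 484%, while DLD had 76.4% as many as LAMB1. The NID2, MFAP4 and THBS3 values are therefore uncertain. Macrophage and leukocyte markers were 9 genes, of which CSF1R and CD4 averaged at least 1 CPM. They summed to 4.35 to 21.98 CPM in HIV-1+LTA cells, 3.56 to 17.3 CPM in HIV-1 cells and 2.82 to 16.9 CPM in PBS cells. CD4 gave most of the sum in batches 1 and 2 but not in batch 3. The part of these markers in the results was not tested.

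Other matrix and TGF-beta genes were counted for comparison. Of 95 further matrix glycoproteins and proteoglycans, DESeq2 called 6 higher and 0 lower of 51 with an adjusted p against HIV-1: VTN (0.84 ± 0.22), OLFML3 (0.56 ± 0.14), LTBP4 (0.40 ± 0.12), ECM1 (0.33 ± 0.09), CCN3 (0.32 ± 0.10) and SDC3 (0.27 ± 0.08), log2 ± SE. Against PBS it called 3 of 46, all higher: LTBP4 (0.51 ± 0.12), LAMA5 (0.44 ± 0.10) and AGRN (0.32 ± 0.08). Of 25 TGF-beta targets it called SMAD7, the inhibitory SMAD (-0.54 ± 0.11), and SNAI2, a mesenchymal transcription factor (-0.40 ± 0.11), lower against HIV-1, and SMAD7 alone against PBS (-0.38 ± 0.11). The TGF-beta targets had a median edgeR log2 fold change of -0.21 against HIV-1 and -0.15 against PBS. edgeR with all 9 libraries called none of these genes in either comparison, while 23 of the 64 tested matrix genes had an unadjusted p below 0.05 in each, and 11 of 25 TGF-beta targets against HIV-1 and 12 against PBS. Against PBS, HIV-1 alone gave 0 calls on both lists by edgeR and DESeq2, with unadjusted p below 0.05 for 3 matrix genes by each tool and for 3 and 2 TGF-beta targets.

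Batch 3 differed from both other batches in most of the members, whereas batches 2 and 1 differed in 1 by edgeR and 3 by DESeq2. Batch 3 against batch 1 gave 12 members higher and 17 lower of 36 in edgeR, where the background was 33.4% higher and 33.3% lower over 16117 genes. Against batch 2 it gave 11 higher and 19 lower, where the background was 32.9% and 34.9%. Most of the genes tested passed as well, and the members' counts are to be read against that. Batch 2 against batch 1 gave 1 higher member, HSPG2, and 0 lower in edgeR, where the background was 0.031% and 0%. DESeq2 called 2 of 28 members higher and 1 lower there, beside 77 higher and 24 lower of 12239 genes. All 3 batch contrasts share libraries in pairs. The median log2 fold change of the members was -0.23 for batch 3 against batch 1 and -0.39 against batch 2, also with the genes at 0 counts set to their bounds, beside -0.0071 and -0.024 over all genes.

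**Figure D5:**
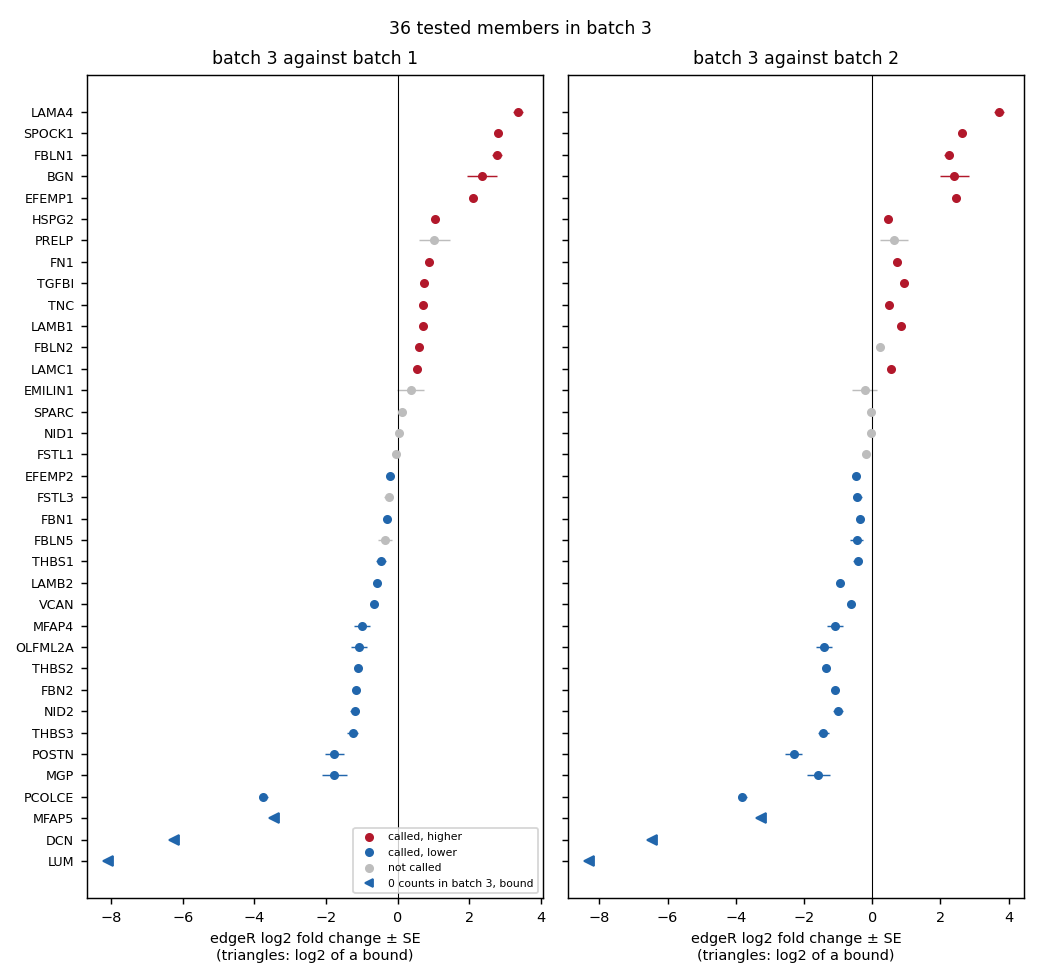
edgeR log2 fold change ± SE of the 36 tested members in batch 3 against batch 1 (left) and batch 2 (right). Triangles mark LUM, DCN and MFAP5, which had 0 counts in batch 3 and are drawn at the log2 of a bound from 3 counts. LAMA4, SPOCK1, FBLN1, BGN and EFEMP1 lie highest in both panels and PCOLCE among the lowest.

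LUM, DCN and MFAP5 had 0 counts in all 3 libraries of batch 3, among 168384933 counts, which allows up to 0.0178 CPM over the batch (3 counts, counting error only). With that floor LUM was at least 274-fold lower in batch 3 than in batch 1 and at least 318-fold lower than in batch 2. DCN was at least 75.6-fold lower than in batch 1 and at least 87.3-fold lower than in batch 2, and MFAP5 at least 10.9-fold lower than in batch 1 and at least 9.64-fold lower than in batch 2. LUM and DCN are neighbours on chromosome 12 (hg19), 28989 bases apart with 0 protein-coding genes between them. PCOLCE was lower in batch 3 by -3.75 ± 0.14 against batch 1 and -3.80 ± 0.14 against batch 2 (edgeR log2 fold change, SE), and MGP by -1.77 ± 0.35 and -1.58 ± 0.34. Periostin (POSTN), a matricellular protein of scar tissue, was at 0.394 ± 0.0348 CPM in batch 3, against 1.51 ± 0.405 CPM in batch 1 and 2.16 ± 0.226 CPM in batch 2 (SD, n = 3).

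Of the 7 basement membrane genes edgeR called 4 higher in batch 3 than in batch 1 (LAMA4, HSPG2, LAMB1 and LAMC1) and 2 lower, LAMB2 at -0.58 ± 0.06 and NID2 at -1.20 ± 0.14 (log2 fold change, SE). LAMA4, the laminin alpha chain of vessel basement membranes, was at 239, 225 and 233 CPM in HIV-1+LTA, HIV-1 and PBS cells of batch 3, against 24.1, 23.6 and 27.9 CPM in batch 1 and 27.4, 17.5 and 15.6 CPM in batch 2. Its edgeR log2 fold change was 3.36 ± 0.14 against batch 1 and 3.71 ± 0.14 against batch 2 (SE). SPOCK1, the testican proteoglycan, was at 1604, 1586 and 1583 CPM in the same groups of batch 3, against 251, 251 and 263 CPM in batch 1 and 293, 286 and 287 CPM in batch 2. Batch 3 stood apart from both other batches for each gene, while batches 1 and 2 overlapped for LAMA4. FBLN1, an elastic fibre fibulin, EFEMP1 and biglycan (BGN), a leucine-rich proteoglycan, were higher in batch 3 than in batch 1 by 2.78 ± 0.14, 2.11 ± 0.08 and 2.36 ± 0.42 on the log2 scale (SE), BGN from at most 31 counts a library. HSPG2, the basement membrane proteoglycan perlecan, was at 36.1, 35.2 and 30.2 CPM in batch 1, 55.3, 45.2 and 50.6 CPM in batch 2 and 67.6, 65.8 and 54.9 CPM in batch 3, in HIV-1+LTA, HIV-1 and PBS cells. It was the 1 member called between batches 2 and 1, at 0.57 ± 0.08 (SE, edgeR adjusted p = 0.0277), and this call was lost in 5 of 9 fits that left out a library, those without any 1 of the PBS libraries or the HIV-1 library of batch 1 or 3.

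Among the adhesive genes, FN1, TGFBI and TNC were higher in batch 3 than in batch 1, by 0.88 ± 0.12, 0.72 ± 0.10 and 0.71 ± 0.09 (edgeR log2 fold change, SE), while THBS1 was lower, at -0.46 ± 0.13. SPARC, NID1 and FSTL1 were called in no batch contrast, with log2 fold changes of 0.12, 0.03 and -0.06 for batch 3 against batch 1. Summed stellate cell markers were 6275 to 7408 CPM in batch 3, against 3532 to 4004 CPM in batch 1 and 3850 to 4737 CPM in batch 2. The list did not move one way: edgeR called 4 of its 11 tested genes higher and 4 lower in batch 3 than in batch 1, with VIM at a mean of 2673 CPM in batch 3, against 729 CPM in batch 1, and COL3A1 at 179.8 CPM in batch 3, against 517 CPM in batch 1. Summed macrophage and leukocyte markers were 2.82 to 4.35 CPM in batch 3, against 16.9 to 17.3 CPM in batch 1 and 14.9 to 21.98 CPM in batch 2. In batches 1 and 2 that sum was mostly CD4, at means of 14.3 and 15.3 CPM, against 1.65 CPM in batch 3. CSF1R was at 1.44 CPM in batch 3, 1.43 CPM in batch 1 and 0.835 CPM in batch 2, so CD4 did not dominate the sum in batch 3. The part of either in the batch differences was not tested. What differed between the batches beyond their number is not given in the labels.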

How the data were processed

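RNA-seq was analysed for 9 LX-2 libraries (HIV-1+LTA, HIV-1 and PBS, 3 each). The submitters' processing notes name fastp, STAR, SAMtools, HTSeq, Bowtie2, bedtools and deepTools, and the build hg19, for RNA-seq and ChIP-seq together; versions, the strand setting, the antibody and the peak threshold are not given in the sources used here. The deposited table holds raw HTSeq counts, 1 row for each gene symbol. The authors' deposited DESeq2 table gives a log2 fold change, its standard error and p-values; its comparison is not named, and all 19990 of its log2 fold changes were within 0.01 of a DESeq2 fit with batch and group for HIV-1+LTA against PBS. The deposited peak list gives positions without a score. LTA is written LTS in the treatment protocol and LTA in titles and treatment labels.

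Counts were tested with the edgeR 4.0.16 quasi-likelihood test (R 4.3.3), TMM scaling and filterByExpr, which left 16117 genes, in 1 fit over all 9 libraries with group and batch. The SE of an edgeR log2 fold change is its absolute value divided by the square root of the test's F statistic. It was thus derived from that test, whereas the SE of DESeq2 is the one that tool reports. DESeq2 1.42.0 with batch and group on 19990 genes (at least 10 counts over the libraries) was the second call rule, since the design text names DESeq2. Genes passed at an adjusted p below 0.05 (Benjamini-Hochberg over all genes). Alternatives were limma-voom (limma 3.58.1), fits with no block, library totals or RLE scaling, a count or CPM filter, the 6 libraries compared only, and leaving out each library or batch. The edgeR, DESeq2 and limma-voom fits with batch and group over all 9 libraries were run on simulated data, for HIV-1+LTA against HIV-1 only. The other alternatives and comparisons were not simulated. CPM (counts per 1000000) uses all counts of the table's genes as total; within-batch differences are of log2 CPM with a prior count of 2; lengths are exon unions of GENCODE on GRCh37. RefSeq promoter sequences are on GRCh38.p14.

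The block is in the main fit because the labels number batches as replicates. Deviations from the group means correlated at 0.705 to 0.917 in the 9 same-number pairs and at -0.835 to 0.764 in the 18 others. These ranges overlap. Batch 3 differed from both other batches in most genes tested, and this alone makes deviations with the same number alike. The correlations therefore cannot decide whether libraries numbered 1 or 2 belong together across groups, and the pairing rests on the labels. The members, their role groups, the lists and the tests were chosen with earlier results of these data known, and the alternatives to the DESeq2 calls (libraries or batches left out, edgeR's gene filter, no block) were added after seeing the data. Named with all values are members called by either test, the 2 highest and 2 lowest fold changes of each comparison, also between batches, and the 3 highest in CPM; TGFBI, LUM and DCN values by treatment were added after they were seen.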

Additional observations from a re-analysis of the deposited data

How the results depend on the processing

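Counts of called members in batch 3 against batches 1 and 2 moved little: over 17 alternatives 26 to 29 of the 29 and 27 to 30 of the 30 edgeR calls were kept. Treatment counts depended on the tool and on single libraries. Against PBS, HIV-1 gave 0 genes in edgeR with the replicate block, 3 in DESeq2 with it, 1 in DESeq2 with no replicate block, 1 without a filter beyond a total count of 10 and 2 with only the 6 libraries compared; over left-out libraries and batches it gave 0 to 5 genes. HIV-1+LTA against HIV-1 gave 0 genes and 0 members in edgeR, 252 and 7 in DESeq2 with the block, 1 and 0 in DESeq2 without the block, 1 gene with the total count filter, and 0 to 2390 genes and 0 to 19 members over left-out libraries and batches. HIV-1+LTA against PBS gave 236 genes and 8 members in DESeq2 with the block, 0 and 0 without the block, and 0 to 2648 genes and 0 to 19 members in edgeR over left-out libraries and batches. edgeR with no replicate block called 0 members in all 3 treatment comparisons.

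In DESeq2 with the block, leaving out libraries or batches gave 0 to 46 genes and 0 to 1 members for HIV-1 alone against its PBS control, 0 to 2108 and 0 to 18 for HIV-1+LTA set against HIV-1, 0 to 2419 and 0 to 18 for HIV-1+LTA set against PBS; edgeR's gene filter gave 1 gene for HIV-1 against PBS. Batch 2 against batch 1 gave 5 genes and 1 member in edgeR, 2 and 0 with no treatment term, 101 and 3 in DESeq2, 8 genes in limma-voom, 10 and 2 with the total count filter, 0 and 0 with only the 6 libraries compared, and 1 to 214 genes and 0 to 6 members over left-out libraries. Single members' fold changes by treatment were set against the main edgeR fit in all its alternatives, DESeq2 and limma-voom among them. Of these, 2119 values kept direction and side of the threshold or moved within their error, 95 newly passed and 31 turned sign without a call. Of DESeq2 values of called members 76 stayed called and 134 did not, and none turned sign. The cause of these changes was not tested. All 120 mean CPM values moved by less than 1 SD with TMM sizes. Genes under about 30 counts, such as MFAP5, BGN, PRELP and EMILIN1, are limited by depth.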
